A study of Homo sapiens with 6 samples.

Results

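The 1674 accessible regions of human chromosome 6 are described here by chromosome arm, by segment and by the genes at which they lie. They were selected on the peak calls of 6 ATAC-seq libraries. Intervals sharing 1 bp or more across the 6 lists were joined, which gave 28879 regions on chromosomes 1 to 22 and X, and those on chromosome 6 were kept. The short arm (6p) held 792 regions and the long arm (6q) 882, with the border set at 60 Mb, inside the longest stretch of the chromosome without a region (58114276 to 60947580). ATAC-seq marks open DNA by the insertion of sequencing adapters with the Tn5 transposase. All libraries came from Huh7, an established human hepatocellular carcinoma line, in which ARID1A had been knocked out. ARID1A is a DNA-binding subunit of the BAF (SWI/SNF) chromatin remodelling complex. The 2 WT libraries carried a stable lentiviral Flag-tagged wild-type ARID1A, the 2 V2084D libraries carried the missense form V2084D in the same way, and the 2 V2084D shSTUB1 libraries carried V2084D with a knockdown of STUB1, a ubiquitin ligase that works with heat shock chaperones. The last 4 are called V2084D-carrying below. All were made from frozen nuclei. The sources used here do not say whether a line was 1 clone or whether replicates were separate cultures, so the spread between replicates may be technical.

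Chromosome 6 carries several clusters of related genes. The short arm holds the largest cluster of replication-dependent histone genes, which supply histones in S phase, and next to it the major histocompatibility complex (MHC), whose class I and class II genes present peptides to T cells. The long arm carries ARID1B, the paralogue that takes the place of ARID1A in other BAF complexes, and a block of liver genes that includes those for plasminogen (PLG) and apolipoprotein(a) (LPA). In most cell types the strongest ATAC-seq peaks lie at the promoters of active genes, while weaker and more variable peaks mark enhancers.

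Promoter sequence is shown for the first-ranked region of each arm and presence class that contained an annotated start site, so that a reader can see what kind of DNA the different classes rest on. RIOK1 (6p) and CDK19 (6q) had a peak in all 6 libraries, SMIM13 (6p) and COX7A2 (6q) in the 4 V2084D-carrying libraries alone, and DXO (6p) in the 2 WT libraries alone. The 200 bases before the RefSeq start site are given 5′ to 3′ on the gene's strand (GRCh38.p14), at chr6:7389608-7389807 (plus) for RIOK1, chr6:11093634-11093833 (plus) for SMIM13, chr6:31972139-31972338 (minus) for DXO, chr6:110815856-110816055 (minus) for CDK19 and chr6:75243802-75244001 (minus) for COX7A2. Capitals mark matches, on either strand, to the GC box GGGCGG, the CCAAT box CCAAT, the TATA box TATAAA, the AP-1 motif TGANTCA and the ETS motif CCGGAAG.
RIOK1: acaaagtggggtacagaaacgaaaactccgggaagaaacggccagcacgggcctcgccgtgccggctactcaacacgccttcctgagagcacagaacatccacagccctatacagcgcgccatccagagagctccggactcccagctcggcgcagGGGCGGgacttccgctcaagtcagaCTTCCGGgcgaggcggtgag
SMIM13: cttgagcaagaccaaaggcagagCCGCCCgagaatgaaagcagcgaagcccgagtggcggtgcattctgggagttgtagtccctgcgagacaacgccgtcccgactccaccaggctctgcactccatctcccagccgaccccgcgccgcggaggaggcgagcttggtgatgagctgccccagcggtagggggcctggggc
DXO: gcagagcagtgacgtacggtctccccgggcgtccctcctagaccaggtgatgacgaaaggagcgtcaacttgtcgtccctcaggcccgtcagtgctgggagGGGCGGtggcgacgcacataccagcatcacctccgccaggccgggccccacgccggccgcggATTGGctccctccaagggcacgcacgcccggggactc
CDK19: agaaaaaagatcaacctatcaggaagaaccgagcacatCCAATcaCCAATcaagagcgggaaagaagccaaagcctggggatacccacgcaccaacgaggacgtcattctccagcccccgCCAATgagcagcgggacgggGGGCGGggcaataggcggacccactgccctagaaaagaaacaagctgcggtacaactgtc
COX7A2: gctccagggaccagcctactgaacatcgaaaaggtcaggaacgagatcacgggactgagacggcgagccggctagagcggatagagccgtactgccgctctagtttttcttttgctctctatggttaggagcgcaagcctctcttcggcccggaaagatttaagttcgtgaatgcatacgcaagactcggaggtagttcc
RIOK1, SMIM13, DXO and CDK19 each held 1 GC box in this window, and COX7A2 held none of the 5 motifs. CDK19 held 3 CCAAT boxes and DXO 1, and RIOK1 held 1 ETS motif. The GC content was 63% for RIOK1, 66.5% for SMIM13, 69.5% for DXO, 56% for CDK19 and 54% for COX7A2, and the class present only with V2084D holds both a high and a low value. DXO, a decapping exoribonuclease gene, shared its region with a start site of WHR1. A match is a string of letters and not a bound site.

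The same windows were scored for all 928 protein-coding genes of chromosome 6 that had a RefSeq promoter entry. The median GC content was 56% for the 502 promoters whose start site lay in no peak, 65.5% for the 335 in a peak of 1 to 5 libraries and 66.5% for the 91 in a peak of all 6. The GC box occurred in 53.4% of the 15812 promoters of all chromosomes. In these chromosome 6 classes it occurred in 40.2%, 67.2% and 71.4%, against 40.3%, 68.2% and 66.4% in the same classes of all chromosomes. TATAAA ran the other way, with 15.1% of the promoters in no peak, 9.85% of those in 1 to 5 libraries and 0 of the 91 in all 6. The 27 chromosome 6 promoters with a peak in the 4 V2084D-carrying libraries alone had a median GC content of 68.5% and a GC box in 20 of 27. Over all chromosomes, the 401 promoters of that class had 69.0% and a GC box in 68.8%. Promoters in peaks were thus richer in GC than those outside them, and the class found only with V2084D lay on the GC-rich side. CCAAT was found in 34.1% of the chromosome 6 promoters open in all 6 libraries and in 43.3% of such promoters genome-wide, and the ETS motif in 9.89% and 19.8%.

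Depth differed between the groups and bears on every count that follows. The lists held 10441 and 7401 peak summits in WT, 9231 and 30768 for V2084D and 21728 and 15326 with V2084D plus shSTUB1. The lowest background in a list, which follows sequencing depth, was 6.63 and 6.54 reads per 10 kb in WT, 7.62 and 11.1 for V2084D, and 9.75 and 8.06 with V2084D plus shSTUB1. WT was therefore the shallowest group, and V2084D replicate 1 was nearest to it in depth and in list length. A median chromosome 6 summit rested on 7 to 11 reads, and absence from a list says only that no peak passed the caller's threshold there.

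Chromosome 6 took a smaller share of the WT lists than of the other lists, and most of the gap lay on the short arm. On 6p the libraries held 162 and 103 regions in WT, 180 and 613 for V2084D, and 438 and 316 with V2084D plus shSTUB1. As a share of each library's regions on all chromosomes this was 1.83% and 1.61% in WT (1.72% ± 0.154, SD, n = 2), 2.25% and 2.76% for V2084D (2.5% ± 0.362, SD, n = 2), and 2.62% and 2.56% with V2084D plus shSTUB1 (2.59% ± 0.0423, SD, n = 2). Both WT values lay below all 4 others, and the mean WT share was 0.675 of the mean V2084D-carrying share. On 6q the libraries held 229 and 155 regions in WT, 212 and 638 for V2084D, and 504 and 363 with V2084D plus shSTUB1. Those shares were 2.58% and 2.42% in WT, 2.65% and 2.87% for V2084D, and 3.02% and 2.95% with V2084D plus shSTUB1. Again the groups did not overlap, but the ratio was 0.872. Among 23 whole chromosomes, both WT shares lay below all 4 others on 5, chromosome 6 included. WT replicate 1, whose list was longer than that of V2084D replicate 1, held 0.900 times as many regions on 6p and 1.08 times as many on 6q.

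**Figure D1:**
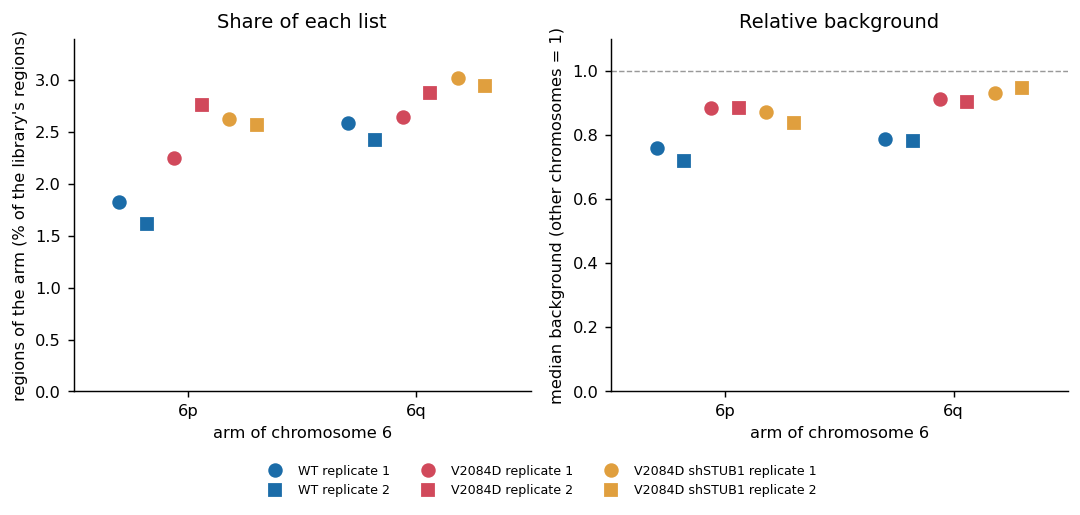
Share of each library's regions that lay on 6p and 6q (left, percent of the library's regions) and median background of those regions relative to the library's other chromosomes (right, other chromosomes = 1, dashed line), with 1 point per library. The 2 WT points lie lowest on both arms in both panels, at 1.61% to 1.83% for the share of 6p.

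The groups were chosen with these values known, and 2 against 4 libraries cannot give a two-sided exact permutation p under 0.0667, so no test was attached. With every list cut to 7234 summits by its −log10 q, 6p kept its order, at 1.47% and 1.62% in WT against 1.97% to 2.25%. The 6q shares then overlapped, at 2.38% and 2.42% against 2.28% to 2.66%. They overlapped as well when peaks needed a −log10 q of at least 5, while on 6p the WT shares were then 1.1% and 1.06% against 1.96% to 2.42%.

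The regions fell into a small core that all libraries shared and a large fringe. On chromosome 6, 109 regions (6.51%) were called in each of the 6 lists and 799 (47.7%) in a single list, against 11.6% and 44.1% on the other chromosomes. The core was thinner on the short arm, with 36 of 792 regions (4.55%) on 6p and 73 of 882 (8.28%) on 6q. Regions in 1 library lay within 1000 bp of an end of a protein-coding gene in 27.3% of cases on 6p and 19.2% on 6q. The share rose with every further library on both arms, to 75% and 79.5% of the regions found in all 6. Median widths rose from 204 and 208 bp to 896 and 964 bp alongside.

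The 5 strongest shared regions of 6p all lay at gene ends. The first, at RIOK1 and CAGE1 (chr6:7389323-7390294), covers the promoter of RIOK1, a kinase needed to mature the small ribosomal subunit. Its summit held 14 and 14 reads in WT, 14 and 40 for V2084D, and 33 and 23 with V2084D plus shSTUB1. RPP40, which encodes a subunit of RNase P, came next with 13 and 12 reads in WT, 20 and 36 for V2084D, and 29 and 27 with V2084D plus shSTUB1. ZFAND3, the hydrolase gene BPHL and CNPY3, a chaperone for Toll-like receptors, completed the first 5. Those of 6q were at CDK19, a kinase of the Mediator complex, together with AMD1 of polyamine synthesis, at RMND1 of mitochondrial translation, at the LYR-motif gene LYRM2 and at RWDD1. The fifth lay outside genes, 23916 bp from the syntaxin gene STX11. CDK19 and AMD1 had 17 and 19 reads in WT, 18 and 38 for V2084D, and 31 and 28 with V2084D plus shSTUB1, so V2084D replicate 1 sat with WT there and the 3 deeper libraries above.

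Regions present only with V2084D were found on both arms at shares near that of the whole genome. A peak in all 4 V2084D-carrying and neither WT library was found at 31 regions of 6p (3.91%) and 19 of 6q (2.15%), where 2.69% of all regions had this pattern. The chromosome 6 share was 2.99%. The order of the arms was not stable, with 18 on 6p and 20 on 6q when peaks had to cover 50% of a region. Of the 50, 28 lay at a gene end, 7 inside a gene and 15 outside genes. The first on 6p lay 105604 bp from NRN1, a neurite growth gene, with summits of 13 and 19 reads for V2084D and 16 and 13 with V2084D plus shSTUB1. SMIM13, which encodes a small membrane protein, followed with 10, 15, 17 and 17 reads. Regions outside genes nearest to H2BC11 and OR2B2, the promoter of MCUR1, a regulator of mitochondrial calcium uptake, and the gene body of TTBK1, a tau kinase, made up the rest of the first 6. On 6q they were COX7A2, a cytochrome c oxidase subunit, with 7, 14, 9 and 8 reads, then the Arf regulator gene SMAP1, the shared promoter of QRSL1 and RTN4IP1, a region near LOC105377864, the gene body of SH3BGRL2, and SMIM8. The COX7A2 region was classed as inside the gene, since it lay over 1000 bp from the gene's outer ends, though it holds the start site of the promoter shown above.

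The reverse pattern, both WT libraries and none of the other 4, held for 1 region on each arm, where 0.0658% of all regions had it. The 6p region (chr6:31972116-31972366) lay in the MHC at DXO and WHR1, and the 6q region (chr6:82144325-82144768) lay 25219 bp from IBTK. Each summit rested on 4 reads in either WT library, over a background of 10 and 9 reads per 10 kb, so both sat at the weak end of their lists. These counts moved with single libraries. On 6p the V2084D-only count was 68 without WT replicate 1, 47 without WT replicate 2, 83 without V2084D replicate 1 and 49 without V2084D shSTUB1 replicate 2. On 6q it was 68, 28, 72 and 36 in the same order. Without WT replicate 1 the WT-only counts were 7 and 13, and without WT replicate 2 they were 12 and 10. The 6p count was 2 without V2084D replicate 2 and 2 without V2084D shSTUB1 replicate 2. In lists of equal length the V2084D-only count was 4 on each arm and the WT-only count 4 on 6p and 6 on 6q. On chromosome 6 this was 1.17% and 1.46% of regions, near the 1.07% and 1.67% of all regions. The counts without a single library have no genome-wide share beside them. Depth and list length moved with these counts and their part was not tested.

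Of the 1049 protein-coding genes of chromosome 6, 440 had no peak within 1000 bp of an end in any library (41.9%, against 41.8% of all 19974 genes). The arms differed in this respect, with 294 of 610 genes (48.2%) on 6p and 146 of 439 (33.3%) on 6q. Genes with a peak in all 6 libraries made up 5.25% on 6p, 17.5% on 6q and 16.2% genome-wide. A peak in the 4 V2084D-carrying libraries alone was found at 22 genes of 6p (3.61%) and 13 of 6q (2.96%), where 3.04% of all genes had it. Both shares were near the background.

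The local background gives a second measure. MACS2 compares the reads at a summit with the reads expected from the surroundings, and the deposited fold and −log10 p together return both numbers. For nearly every summit this background was a whole number of reads in a 10 kb window. On chromosome 6 it was low relative to the rest of the genome in every library, and lowest in WT. The median over 6p regions was 25 and 23 reads per 10 kb in WT, 30 and 45 for V2084D, and 37.5 and 31 with V2084D plus shSTUB1. The other chromosomes had 33, 32, 34, 51, 43 and 37 in the same order. Dividing the arm by the other chromosomes gave a relative background on 6p of 0.758 and 0.719 in WT (0.738 ± 0.0275, SD, n = 2), 0.882 and 0.882 for V2084D, and 0.872 and 0.838 with V2084D plus shSTUB1. On 6q it was 0.788 and 0.781 in WT (0.785 ± 0.00469, SD, n = 2), 0.912 and 0.902 for V2084D, and 0.930 and 0.946 with V2084D plus shSTUB1. Both WT libraries thus lay below all 4 others on each arm, at 0.850 of the mean V2084D-carrying value on 6p and 0.850 on 6q. Among 23 whole chromosomes, WT lay below all 4 others in this measure on 4 and above all 4 on 1. V2084D replicate 1, the library nearest to WT in depth, had a chromosome 6 value of 0.904, against 0.758 in WT replicate 1 and 0.750 in WT replicate 2. The V2084D shSTUB1 libraries lay below the V2084D libraries on 6p and above them on 6q, and above both WT libraries on each arm.

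Leaving out regions at gene ends raised the 6p difference from 0.130 to 0.186 and lowered the 6q difference from 0.138 to 0.0389, and the 6q groups then overlapped (0.769 and 0.640 in WT against 0.679 to 0.793). Lists of equal length gave 0.0699 on 6p and 0.184 on 6q, and a −log10 q of at least 5 gave 0.0645 and 0.218, with the WT libraries still below the others. The 10 kb window includes the peak's own reads. Subtracting the summit reads left differences of 0.158 and 0.189.

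Since the lists held different regions, the background was also followed at the 109 chromosome 6 regions found in all 6 libraries. Of these, 0 lay within 10 kb of another. Their median relative background was 0.721 and 0.769 in WT, 0.878 and 0.864 for V2084D, and 0.955 and 0.906 with V2084D plus shSTUB1. Each region was then set against its own mean over the 6 libraries on the log2 scale, after scaling every library to the other chromosomes. On 6p the means were −0.23 and −0.18 in WT, 0.15 and 0.09 for V2084D, and 0.08 and 0.11 with V2084D plus shSTUB1. On 6q they were −0.19 and −0.13, 0.08 and 0.02, and 0.10 and 0.11. WT thus stood 0.31 below the V2084D-carrying mean on 6p and 0.24 below it on 6q, which corresponds to 0.805 and 0.848 of its level. The same regions' summit reads, treated likewise, gave −0.11 and −0.09 in WT, 0.07 and 0.00 for V2084D, and 0.01 and 0.11 with V2084D plus shSTUB1, so the summits followed the background by a smaller step.

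**Figure D2:**
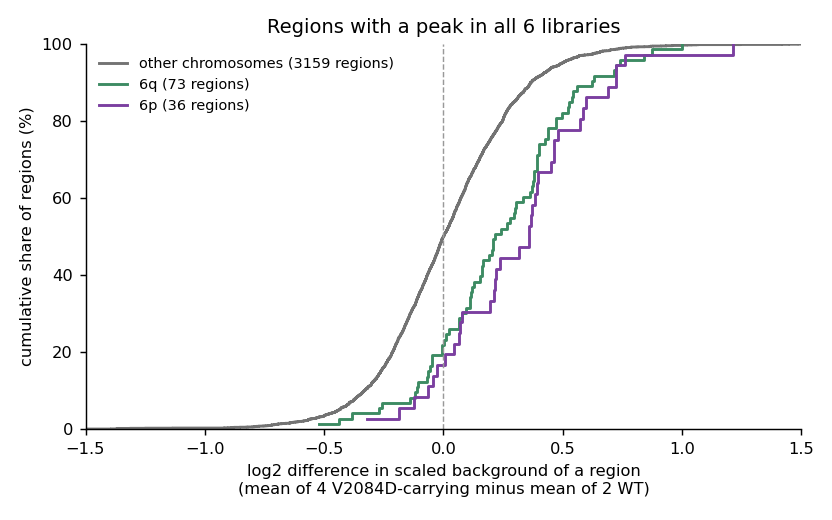
Cumulative share of regions with a peak in all 6 libraries (vertical axis, percent) by the log2 difference in scaled background, the mean of the 4 V2084D-carrying libraries minus the mean of the 2 WT libraries (horizontal axis). The curves of 6p (36 regions, median 0.36) and 6q (73 regions, median 0.22) lie to the right of that of the other chromosomes (3159 regions, median 0.00).

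The shift was spread over the shared regions and was not carried by a few. The difference was above 0 at 30 of 36 regions on 6p (83.3%) and 57 of 73 on 6q (78.1%), against 50% of 3159 regions on other chromosomes. Both WT libraries lay below all 4 others at 15 regions of 6p (41.7%) and 23 of 6q (31.5%), where 15.3% of all such regions did. They lay above all 4 at 0 regions of 6p and 2 of 6q, where 11.9% did. Single regions varied, from −0.52 to 1.22. Among the first-ranked promoters, RIOK1 had 36 and 34 background reads per 10 kb in WT, 40 and 101 for V2084D, and 89 and 67 with V2084D plus shSTUB1, a scaled difference of 0.45. RPP40 had 0.57, BPHL 0.48, ZFAND3 0.07 and CNPY3 −0.19. On 6q CDK19 with AMD1 had 0.11, RMND1 0.12, LYRM2 0.01, RWDD1 −0.11 and the region near STX11 −0.12.

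The rule that chose chromosome 6 named the background and the contrast of WT with V2084D-carrying libraries. The chromosome's ranks below are thus not independent of that choice. Chromosome 6 stood first of the 23 chromosomes in the log2 difference of scaled background. Its log2 difference was 0.26, and those of the other 22 ran from −0.15 on chromosome 21 to 0.19 on chromosome 1 and 0.11 on chromosome 15. It also ranked first in the difference of relative background over all regions (0.148, next chromosome 1 with 0.105) and had the smallest ratio of WT to V2084D-carrying list share (0.779, next chromosome 16 with 0.869). WT lay below all 4 others in the log2 measure on 4 chromosomes and above all 4 on 7. Background reads depend both on how many copies of a stretch of DNA the cells hold and on how open it is, and in these lists the copy number of the cell lines and the ARID1A form cannot be told apart.

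**Figure D3:**
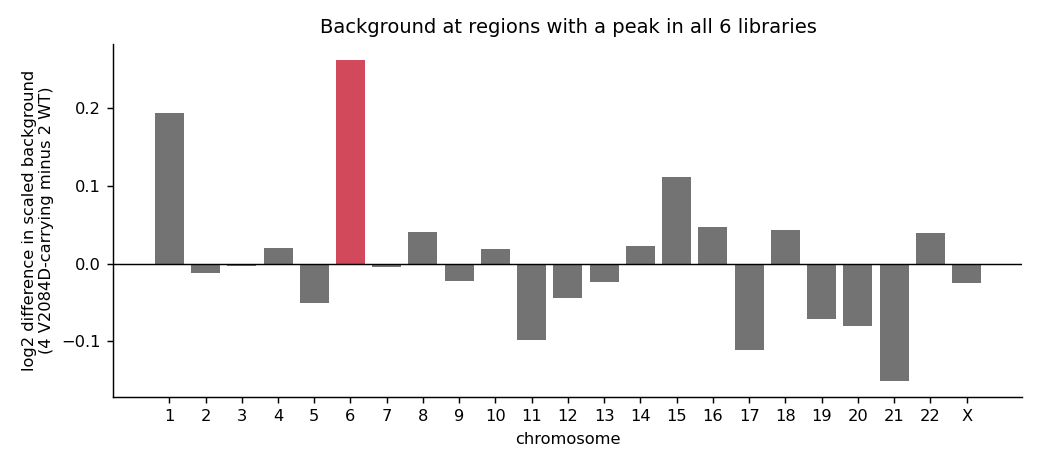
Difference in scaled background (log2, mean of 4 V2084D-carrying minus mean of 2 WT libraries) for each chromosome, averaged over its regions with a peak in all 6 libraries. Chromosome 6 (coloured) has the highest bar at 0.26, followed by chromosome 1 at 0.19, and chromosome 21 has the lowest at −0.15.

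Along the chromosome the lower WT background was broad and not even. The chromosome was divided into 12 segments of 15 Mb counted from the end of 6p, of which the first 4 make up 6p. Both WT values lay below all 4 others in 6 of 12 segments (segments 1, 2, 3, 6, 7 and 9) and above all 4 in 0. Of 204 such segments on all chromosomes, 17.2% had WT below and 8.82% above. Segment 1, the end of 6p with 190 regions, had 0.79 and 0.75 in WT, 1.09 and 1.14 for V2084D, and 1.16 and 1.03 with V2084D plus shSTUB1. Segment 7 (90 to 105 Mb) had 0.68 and 0.50 in WT, 0.85 and 0.92 for V2084D, and 0.86 and 0.82 with V2084D plus shSTUB1. In segment 2, which holds the histone genes, the groups were only just apart, with WT at 0.727 and 0.719 and the others at 0.730 to 0.863. Segment 10 (135 to 150 Mb) had the highest background in both WT libraries, at 1.12 and 0.97, and the others, at 0.99 to 1.21, overlapped it. Segment 12, the end of 6q, lay at 0.5 to 0.727 in the 6 libraries, and segment 5 spread from 0.514 to 0.902, with the groups overlapping in both.

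Counted over the regions found in all 6 libraries, 10 segments held at least 5 such regions, and WT lay below all 4 others in 8 of them, where 26% of 177 segments genome-wide did. Segment 1 again had the largest step, at −0.30 and −0.32 in WT and 0.12 to 0.18 in the others over 15 regions. Segment 10, with 17 regions, was level at −0.07 and 0.03 in WT and −0.06 to 0.06 in the others. Segments 9 and 11 differed by 0.36 each. Segment 2 rested on 5 regions and WT replicate 2 (0.04) lay within the others there. Segment 5 held 1 shared region and segment 12 held 0.

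**Figure D4:**
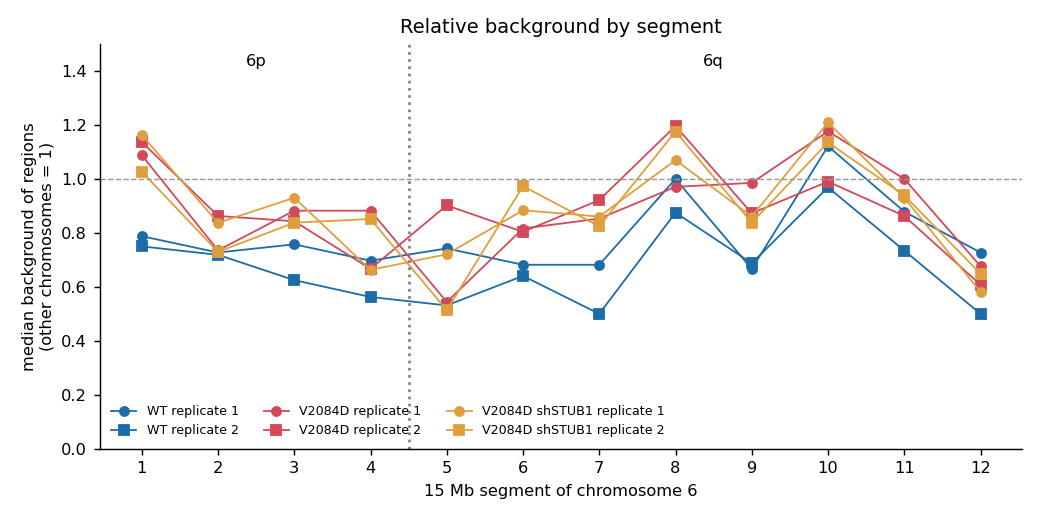
Median background of the regions in each 15 Mb segment of chromosome 6, relative to the library's other chromosomes (vertical axis, other chromosomes = 1), for segments 1 to 12 (horizontal axis, dotted line between 6p and 6q), with 1 line per library. The WT lines run below the others in segments 1, 2, 3, 6, 7 and 9 and overlap them in the other 6 segments.

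The share of regions per segment separated the groups on all of 6p and on part of 6q. In all 4 segments of 6p and in segments 5, 10 and 12 both WT shares lay below the other 4. How often segments of other chromosomes showed this order of shares was not counted. In segment 2 the shares of the list were 0.42% and 0.42% in WT, 0.64% and 0.83% for V2084D, and 0.82% and 0.71% with V2084D plus shSTUB1, so that the WT mean was 0.559 of the V2084D-carrying mean. Segment 3, which holds the MHC, had 0.62% and 0.52% in WT against 0.69% to 0.89%. In segment 6 the groups did not differ (0.36% and 0.44% in WT, 0.36% to 0.44% in the others), although its background did. The strongest region of each segment was at a gene end in 10 of 12, namely RIOK1, TDP2 with ACOT13 (a DNA repair phosphodiesterase and a thioesterase), ZFAND3, PHF3, LYRM2, CDK19 with AMD1, the Mediator gene MED23, the NKG2D ligand gene ULBP1, RMND1 and the mitochondrial pyruvate carrier gene MPC1. In segment 7 it lay 3034 bp from USP45, and in segment 4 it was a region of V2084D shSTUB1 replicate 1 alone, 62982 bp from TNFRSF21.

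The histone cluster held more regions per length than chromosome 6 as a whole. Between its first and last replication-dependent histone gene (25726063 to 27893891) lay 111 regions, or 51.2 per Mb, and 75 protein-coding genes. Chromosome 6 as a whole had 9.81 regions per Mb, with 1674 regions and 1049 protein-coding genes. Regions per gene were thus not higher in the cluster. Its share of the list was 0.192% and 0.250% in WT, 0.337% and 0.401% for V2084D, and 0.408% and 0.357% with V2084D plus shSTUB1, and WT lay below the other 4. The relative background was 0.606 and 0.609 in WT, 0.853 and 1.20 for V2084D, and 0.942 and 0.824 with V2084D plus shSTUB1. Only 2 of its 111 regions (1.80%) were in all 6 libraries, against 5.39% on 6p outside this cluster and the MHC and 11.3% of all regions. The V2084D-carrying libraries alone held 6 (5.41%), against 3.65% on that rest of 6p and 2.69% of all regions. Of 55 histone genes, 32 (58.2%, as for all protein-coding genes) had a peak at an end in at least 1 library, with 12 and 8 in WT, 7 and 30 for V2084D, and 28 and 16 with V2084D plus shSTUB1. V2084D replicate 1 thus had the fewest, below both WT libraries. H4C3 had a peak in all 6, and H4C11 in the 4 V2084D-carrying libraries alone. The first by rank were H3C6 in 4 libraries, both WT among them, H2AC16 in V2084D shSTUB1 replicate 2 alone, H1-2 in 3 V2084D-carrying libraries and the shared promoter of H2AC6 and H2BC4 in 2. Short copies of such genes are near-identical in coding sequence, and reads that fit several may have been dropped or split, so absent peaks there are uncertain and the part of this was not tested. The 50 histone genes with a promoter entry carried a CCAAT box in 43 cases (86%) and TATAAA in 29 (58%), against 30.5% and 7.60% of all promoters, and their median GC content was 41.5%.

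The MHC shared few of its regions between libraries. Between HLA-F and HLA-DPB1 (29723434 to 33089696), 50 regions were found among 128 protein-coding genes. This was 14.9 per Mb against 9.81 per Mb on chromosome 6 as a whole. Per gene the MHC had fewer regions, since chromosome 6 held 1674 regions for 1049 protein-coding genes. Of the 50, 0 were in all 6 libraries, against 5.39% on 6p outside the MHC and the histone cluster and 11.3% of all regions. The libraries held 6 and 5 of them in WT, 7 and 35 for V2084D, and 23 and 17 with V2084D plus shSTUB1. Its relative background was the lowest of the 3 divisions of 6p compared, at 0.394 and 0.344 in WT, 0.676 and 0.451 for V2084D, and 0.558 and 0.541 with V2084D plus shSTUB1. Counting peaks within 1000 bp of a gene's outer ends, HLA-B of the 8 class I genes had one in the 4 V2084D-carrying libraries, HLA-C in V2084D replicate 2 and V2084D shSTUB1 replicate 2, and HLA-E in V2084D replicate 2. HLA-F, HLA-G, MICA and MICB were among those with none at their ends, and neither WT library had a peak at the end of a class I gene. Over all 6p genes the WT libraries had one at 19.3% and 13.8% and V2084D replicate 1 at 20%. V2084D replicate 1 had a peak at 1 of the 8 class I genes. A region inside MICA (chr6:31403443-31403882) was called in the 4 V2084D-carrying libraries alone, with 9, 12, 16 and 6 summit reads. Of 11 class II genes, HLA-DQB1 had a peak in 4 libraries, WT replicate 1 among them, and HLA-DRB1 in 1. TAP1 and PSMB9, which help supply peptides to class I molecules, shared a peak in V2084D replicate 2 and both V2084D shSTUB1 libraries, and TAPBP in 1 library, while TAP2 and PSMB8 had none. HLA genes differ between cell lines and from the reference, so reads of a diverged allele may be lost, and this was not tested.

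Over all protein-coding genes, 58.2% had a peak at an end in at least 1 library and 16.2% in all 6, and the 243 list members had 58.0% and 8.64%. Among the 13 lists, which were put together by hand and not tested, cell division genes had the highest share. Of 16, 15 had a peak in at least 1 library (93.8%) and 6 in all 6 (37.5%), among them CDK19, the helicase subunit gene MCM3, the licensing inhibitor gene GMNN and the splicing factor gene CDC5L. CDKN1A, which encodes the cell cycle inhibitor p21, was the 1 member without a peak at its outer ends, and internal start sites were not scored. The counts per library were 11 and 9 in WT, 9 and 15 for V2084D, and 14 and 13 with V2084D plus shSTUB1. Among 19 chaperone and ubiquitin genes, 16 had a peak in at least 1 library and 4 in all 6, including the chaperonin gene TCP1 and UFL1, a ligase gene of the ubiquitin-like UFM1 pathway. CUL7, a cullin of a ubiquitin ligase, had one in the 4 V2084D-carrying libraries alone, and HSP90AB1, a partner of the STUB1 ligase, in WT replicate 1 and the 3 deepest others. RNF8 had one in those 3 alone, and HSPA1A, HSPA1L and TRIM27 had none.

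**Figure D5:**
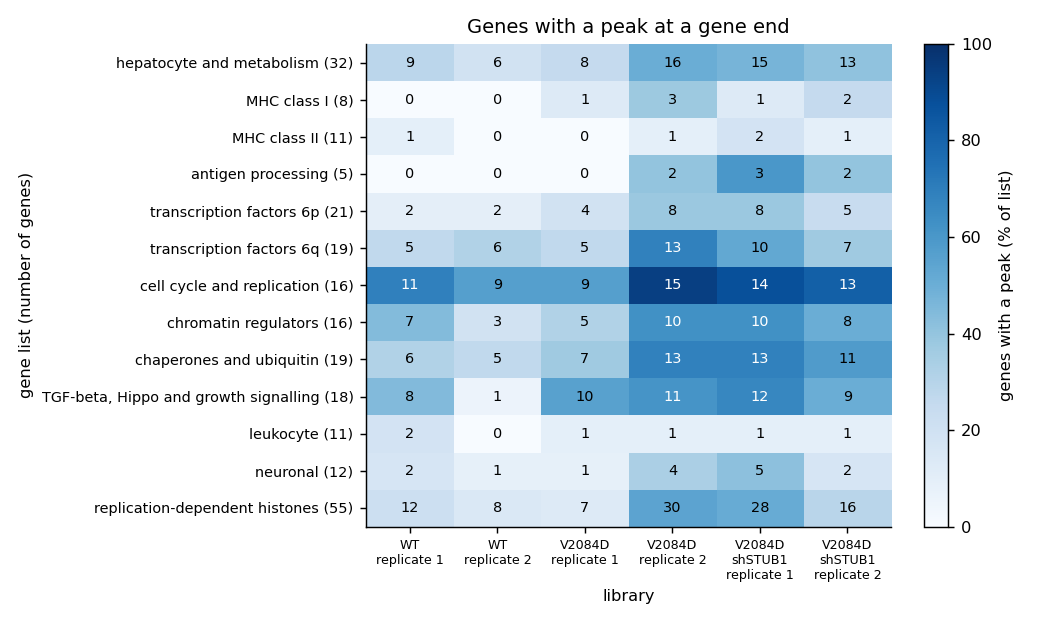
Number of genes of each chromosome 6 list (rows, list size in brackets) with a peak within 1000 bp of a gene end in each library (columns), coloured by the percentage of the list. Cell cycle genes range from 9 to 15 of 16 and leukocyte genes from 0 to 2 of 11, and the 3 longest lists of regions show the most genes in most rows.

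Chromatin regulators had a peak in 11 of 16 cases, with SUPT3H, a SAGA subunit gene, and HMGN3 in all 6 libraries. HDAC2, a histone deacetylase gene, had one in all but WT replicate 2, TAF8 in 4 libraries and HMGN4 in 5. ARID1B, BRD2, EHMT2, PHF10 and RING1 had no peak at either end in any library. A region 218110 bp outside ARID1B was found in the V2084D shSTUB1 libraries alone, with 8 and 5 summit reads. Only outer gene ends were scored in all the lists, so internal start sites of their genes are not covered. Of 40 transcription factor genes, 24 (60%) had a peak in at least 1 library, close to the 58.2% of all genes. NFYA, a subunit of the factor that binds CCAAT, had one in all 6 libraries on 6p, and CITED2 and TBP did on 6q. FOXP4 lacked one in WT replicate 2 alone and PLAGL1 in WT replicate 1 alone, SOX4 had one in 2 libraries, HIVEP1 and SIM1 in 1 and 2, and TBX18 in 5. PPARD, a lipid-sensing nuclear receptor gene, had one in the 4 V2084D-carrying libraries alone.

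Growth signalling genes had a peak in 12 of 18 cases. IFNGR1, the interferon gamma receptor gene, had one in all 6 libraries, and the Hippo kinase gene LATS1, MAP3K5 and MAP3K7 in all but WT replicate 2. VEGFA, the angiogenic growth factor gene, had its peak in the 4 V2084D-carrying libraries alone. WT replicate 2, the shortest list, held 1 gene of this list while WT replicate 1 held 8, so the WT libraries differed widely from each other. Of 32 hepatocyte and metabolic genes, 16 had a peak, and GSTA4, SOD2 with ACAT2, and BCKDHB had one in all 6 libraries. GCLC, of glutathione synthesis, lacked one in WT replicate 2, and TPMT had one in the 4 V2084D-carrying libraries alone. The 16 without a peak at an end in any library included ARG1, PLG, LPA, CFB, C2, VNN1 and SLC17A1, named after their values were seen, which are known for their expression in liver or kidney. A region 10588 bp from LPA was called in the 4 V2084D-carrying libraries alone, with 5, 11, 8 and 8 summit reads. Leukocyte genes had a peak in 2 of 11 cases (TNFRSF21 and CD83), with TNF, LTA, LTB, AIF1 and TREM2 in none, and neuronal genes in 5 of 12, with GRIK2 in the 4 V2084D-carrying libraries alone. Of the 243 list members, 7 (2.88%, against 3.04% of all genes) had that last pattern, namely H4C11, HLA-B, CUL7, PPARD, VEGFA, TPMT and GRIK2.

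Knockdown of STUB1 was compared with V2084D alone through the same presence patterns. A peak in both V2084D and neither V2084D shSTUB1 library was found at 15 regions of 6p (1.89%) and 8 of 6q (0.907%), where 1.19% of all regions had it. The reverse was found at 16 of 6p (2.02%) and 18 of 6q (2.04%), where 1.29% did. The first of the former were regions 29533 and 132502 bp from ZNF184 and the end of the linker histone gene H1-2 on 6p, and on 6q the promoter of POPDC3, a region 13852 bp from SOBP and 1 inside EYA4. Those of the reverse were 7132 bp from FOXF2, 14955 bp from MRPS18A and inside CDKAL1 on 6p, and inside DCBLD1, outside ARID1B and 45996 bp from GPR31 on 6q. Their summits held 5 to 15 reads. The EYA4 region was also in WT replicate 2 and the CDKAL1 region in WT replicate 1. H1-2 had another region at its ends, with a peak of 11 summit reads in V2084D shSTUB1 replicate 2. V2084D replicate 1 was shallower than both V2084D shSTUB1 libraries, and the part of depth in these counts was not tested.

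Gene positions were not used to choose the regions, so the share at gene ends could be tested between the arms. Within each library, the share of 6p regions at gene ends minus that of 6q regions was −5.37 and 6.66 percentage points in WT, −6.98 and 0.955 for V2084D, and 1.19 and 0.823 with V2084D plus shSTUB1. The mean was −0.453 ± 4.98 (SD, n = 6), and an exact two-sided sign-flip permutation test over the 6 libraries gave p = 0.969, where the smallest possible p is 0.0313. The sign differed between the WT replicates and between the V2084D replicates. Over all merged regions the shares were 40.8% on 6p and 36.8% on 6q. With a −log10 q of at least 5 the mean was −7.31 (exact p = 0.0313), the smallest that 6 libraries allow, not adjusted for the other settings tried. The direction turned without WT replicate 1 (0.530), without V2084D replicate 1 (0.853) and with a window of 500 bp (0.577).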

How the data were processed

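Peaks were called by the authors with MACS2 on hg38, per the submitters' processing notes, which also name Trimmomatic, Bowtie2, SAMtools, Picard, bedtools and deepTools; the sources used here give no versions or settings. Each deposited list gives, per summit, the authors' score, the fold enrichment over the local background, and −log10 p and −log10 q values. Summit reads and background solved from fold and −log10 p were compared between lists. The −log10 q ordered peaks within a list and set the stricter cut of at least 5.

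From fold and −log10 p, summit reads and background reads were solved for with a pseudocount of 1, and whole summit reads returned the deposited −log10 p within 0.001 for over 99.9% of summits. In each V2084D-carrying library 1 summit on another chromosome could not be solved and was left out. Regions were merged at 1 bp of overlap, and genes and promoters come from RefSeq (GRCh38.p14). Relative background is the median over regions divided by that of chromosomes 1 to 22 and X without 6. Summits elsewhere (2.07% to 2.60% of a list) were left out.

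The members, groups and gene lists were chosen with earlier results of these data known. Named regions were the first by mean percentile of −log10 q within each class (5 in all 6 libraries, 6 in one genotype alone, 3 for the knockdown, 1 per segment). List members beyond the first 4 and those without a peak were named after their values were seen, and a few members are not reported here. Python 3.11.15, pandas 2.3.3, numpy 2.4.6 and scipy 1.17.1 were used, and the steps were tested on simulated data.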

Additional observations from a re-analysis of the deposited data

Results flagged for a closer look

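The share of 6p regions at gene ends minus that of 6q regions was −6.981 percentage points in V2084D replicate 1, the lowest of the 4 V2084D-carrying libraries. Its gap to the nearest of the other 3 was 0.955 of the group's range, above Dixon's 95% critical value for 4 samples. It was the 1 value of 17 measures that stood apart in this way, and chance alone marks about 1 in 20 groups.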

How the results depend on the processing

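For the relative background, V2084D-carrying minus WT, the difference of 0.1305 on 6p became 0.154 in regions of all 6 libraries, 0.1857 without gene ends, 0.1651 with the mean, 0.2787 scaled to the lowest background and 0.06452 at a −log10 q of at least 5. The 6q difference of 0.1379 became 0.1649, 0.03885, 0.1703, 0.294 and 0.2177. Scaling to the lowest background changes the unit (3.52 to 4.06 on 6p), so its differences cannot be compared in size with the rest. The WT mean was then 0.929 of the V2084D-carrying mean on each arm, against 0.850 in the main setting. Settings chosen after seeing the data gave 0.06986 and 0.1835 with equal lists and 0.1577 and 0.1888 with summit reads subtracted. Leaving out 1 library gave 0.1111 to 0.1499 on 6p. The 6p share difference of 0.8297 percentage points became 1.134 at the stricter q and 0.6116 with equal lists, and that of 6q, 0.3673, became 0.5421 and 0.09865. Regions in the V2084D-carrying libraries alone fell from 31 to 13 (stricter q), 4 (equal lists) and 18 (peaks covering 50% of a region) on 6p. On 6q they went from 19 to 10, 4 and 20. As shares of chromosome 6 regions these settings gave 3.14%, 1.17% and 2.28%, against 2.45%, 1.07% and 2.12% of all regions. With 1 library left out, the counts were 31 to 83 on 6p and 19 to 72 on 6q. WT-only regions, 1 per arm, were 0 on both arms at the stricter q, 4 and 6 with equal lists, and 1 to 12 and 1 to 13 with 1 library left out. The gene-end difference of −0.4529 became −7.307 at the stricter q (exact p = 0.03125) and turned to 0.5768 with a 500 bp window. Over libraries left out it ran from −1.876 to 0.8527, with 0.5304 without WT replicate 1 and 0.8527 without V2084D replicate 1. Segments with WT below all others numbered 6, and 5 with borders shifted by 7.5 Mb. The cause of these changes was not tested. No paired analysis was possible because nothing in the labels says that same-numbered libraries belong together, the differences between groups carry no test, and the gene-end test compares arms within a library. Summits of 7 to 11 reads limit what absence can show.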
